A study of Mus musculus with 32 samples.

Results

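The gastric proton pump and the sodium pump are close relatives, each built from a catalytic alpha subunit and a glycosylated beta subunit. The genes described here were the alpha subunit of the gastric pump (Atp4a), its beta subunit (Atp4b), the alpha subunit of the non-gastric proton pump (Atp12a), and the beta subunits of the sodium pump (Atp1b1, Atp1b2 and Atp1b3). Every array probe that carried one of these 6 gene names was taken, which gave 11 probes, of 24523 genes with a probe past the filter on dim spots. All 6 genes kept at least 1 probe, and 10 of the 11 probes passed. The group was put together around Atp4b, which was chosen by its low level in total ChREBP KO mice, so the values of all 6 genes in that comparison are given as a description without a test.

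Gene expression was measured on 32 one-color Agilent arrays of brown adipose tissue, 1 tissue sample per array and 8 per group. ChREBP, the product of Mlxipl, is a glucose-responsive transcription factor with a full-length α isoform and a shorter β isoform transcribed from its own first exon. The total ChREBP KO mice were Mlxipl-null and lacked both isoforms throughout the body, and the ChREBPβ KO mice carried a CRISPR/Cas9 deletion of exon 1b in all tissues. Each KO was compared with the WT group of its own line (ChREBPtotal and ChREBPbeta in the labels), and all mice were C57BL6/J males on a regular diet, fasted for 24 h and then refed for 18 h with food and water holding 20% glucose. Age was not given in the sources used here.

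In the stomach, the alpha and beta subunits encoded by Atp4a and Atp4b are made by parietal cells, where the assembled pump exchanges potassium for protons and acidifies the gastric lumen. The sodium pump works in nearly every cell, and its beta subunit is needed for the alpha subunit to fold and reach the plasma membrane. A beta subunit has no transport activity of its own. In brown fat, the sodium pump maintains the ion gradients that serve nutrient uptake and membrane potential.

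The probes are 60-base oligonucleotides, and 4 of them are shown because the comparison of Atp4b with its partner subunits rests on which transcripts these letters match. They are written 5′ to 3′ as printed in the array design, with no position set in capitals, and their positions are those of the design on the mm9 build.

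Atp4b upstream probe A_55_P2727359: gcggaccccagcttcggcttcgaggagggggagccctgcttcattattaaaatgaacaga
Atp4a probe A_51_P426792: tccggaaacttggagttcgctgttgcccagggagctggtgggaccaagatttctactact
Atp4a probe A_52_P300445: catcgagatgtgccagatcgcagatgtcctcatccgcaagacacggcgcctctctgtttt
Atp12a probe A_52_P329398: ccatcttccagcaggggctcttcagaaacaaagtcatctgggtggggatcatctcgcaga

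The upstream Atp4b probe starts at base 520 of the transcript and lies on the minus strand at chr8:13389666-13389725. The other Atp4b probe, A_55_P1959909, starts at base 1264 and lies at chr8:13386212-13386271, and it is called the 3′ probe here. The first Atp4a probe starts at base 3052 and the second at base 2819, at chr7:31509268-31509327 on the plus strand, and the Atp12a probe starts at base 3073, within chr14:57005794-57006021 on the plus strand. The longest run of bases that either Atp4b probe shared with any other probe of the 6 genes was 8 bases. The Atp1b probes map to chromosome 1 (Atp1b1), chromosome 11 (Atp1b2) and chromosome 9 (Atp1b3). Of the 11 probes, 10 carried a RefSeq accession of the gene they are named for, and A_51_P426792 carried the GenBank accession U17282 in its place. The gene name of A_51_P426792 could therefore not be checked against RefSeq. Its design coordinates span 35814 bases, so no chromosome position is given for it.

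Between 64.4% and 71.1% of the spots were well above background on an array, and no spot was saturated. The targeted gene was checked through the Mlxipl probe A_55_P2119957 in the 3′ region of the transcript, whose log2 intensity was 15.98 to 16.33 in WT and 13.49 to 13.91 in total ChREBP KO mice. It was 16.15 to 16.55 in WT and 14.68 to 14.99 in ChREBPβ KO mice, so neither KO group overlapped its WT group. Another Mlxipl probe (A_55_P2728555) was lower in both KO groups too, while A_55_P2045158 overlapped between KO and WT, with means of 11.22 to 11.44 in all groups. Whether these probes lie in a deleted part is not given in the sources used here for the total ChREBP KO, and none was placed in exon 1b, so they check the labels through the amount of transcript alone. All 10 brown adipocyte markers, Ucp1 and Adipoq among them, passed the filter. The mean of 10 skeletal muscle genes (Acta1, Ckm, Mylpf and others) was 12.86 to 16.22 on the log2 scale in WT and 14.38 to 15.92 in total ChREBP KO mice, but 5.48 to 12.00 and 5.50 to 11.39 in the WT and KO mice of the ChREBPβ line. The mean of 8 liver genes, Alb among them, ranged from 6.33 to 13.55 over all arrays. In bulk tissue, fewer cells of a type and less RNA per cell cannot be told apart.

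Atp4b was present at a clear level in all groups except total ChREBP KO. The 3′ probe had a normalized log2 intensity of 10.47 to 11.31 (median 10.998) in the 8 WT mice of the total ChREBP line and of 4.77 to 5.54 (median 5.04) in the 8 total ChREBP KO mice. It was 11.22 to 11.82 (median 11.61) in the WT and 11.47 to 11.95 (median 11.82) in the KO mice of the ChREBPβ line. Every total ChREBP KO array lay far below every array of the other 3 groups, while WT and KO of the ChREBPβ line overlapped. The group means were 10.98 ± 0.28 (SD, n = 8), 5.08 ± 0.25, 11.55 ± 0.22 and 11.76 ± 0.17 in the same order. The difference of total ChREBP KO from WT mice with the 3′ probe was −5.90 ± 0.11 log2 units (SE), a 59.6-fold lower level, and was at rank 3 from the lowest of the 24523 genes. Before normalization, the median intensity of the 3′ probe was 2191.5 in WT and 30 in total ChREBP KO mice. The median array thus had 132 and 1.86 times the signal of its negative control spots, and the 3′ probe still counted as well above background on 7 of the 8 total ChREBP KO arrays.

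**Figure D1:**
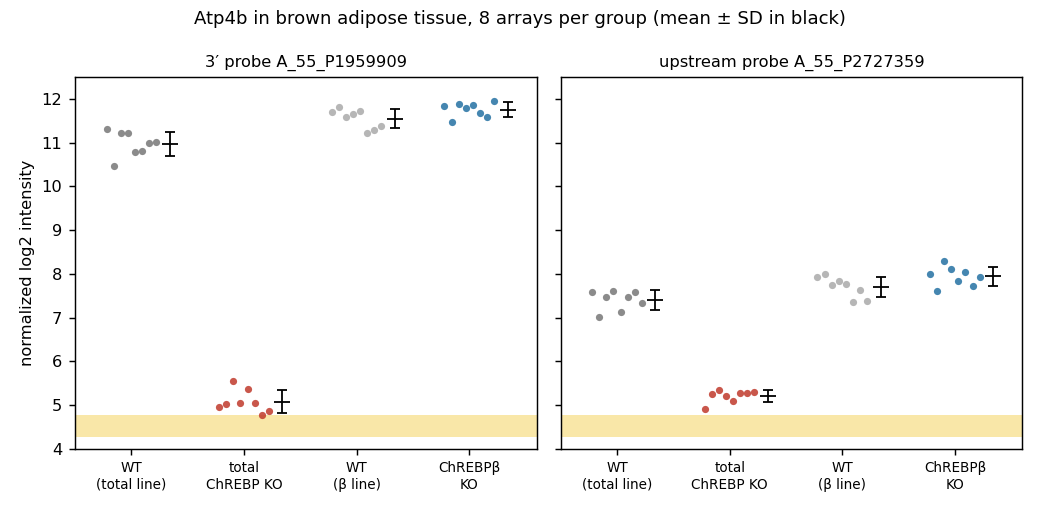
Normalized log2 intensity of the Atp4b 3′ probe (left) and upstream probe (right), 1 point per array, 8 arrays in each of the 4 groups, with mean ± SD in black. The yellow band spans the lowest values of probes well above background on each array (4.26 to 4.77), and the 8 total ChREBP KO arrays sit at its upper edge or just above it, apart from all other arrays.

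The upstream Atp4b probe gave the same order of groups. Its log2 intensity was 7.004 to 7.62 (median 7.46) in WT and 4.91 to 5.35 (median 5.27) in total ChREBP KO mice, and 7.36 to 7.9997 (median 7.76) in WT and 7.62 to 8.29 (median 7.96) in ChREBPβ KO mice. The total ChREBP KO arrays again did not overlap any other group. Total ChREBP KO differed from WT by −2.19 ± 0.10 log2 units (SE), a 4.56-fold lower level. The median WT array of the total ChREBP line had 10.995 times the signal of its negative controls with this probe, and the median KO array 2.08 times. Both probes ended near the signal of the negative controls in total ChREBP KO mice, so the fold that each can show is limited by its level in WT. Within each of the 4 wash batches, the difference was −6.19 to −5.27 with the 3′ probe and −2.31 to −1.97 with the upstream probe. Wash batch 2, with 1 total ChREBP KO array, gave the smallest difference with both probes. The size depended on background correction. With Agilent's processed signal it was −7.25 and −3.08, and with the normexp correction it was −4.87 and −1.48.

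In ChREBPβ KO mice, which were not used to choose Atp4b, neither of its probes passed the test. The 3′ probe was 0.21 ± 0.11 log2 units (SE) above WT (limma, adjusted p = 0.427), with a 95% interval of −0.02 to 0.44. The upstream probe was 0.24 ± 0.10 above WT (limma, adjusted p = 0.258), with an interval of 0.03 to 0.44. With either probe, 7 of 8 ChREBPβ KO arrays exceeded the mean of WT. As a fold, the interval of the 3′ probe ran from 0.987 to 1.36. With slide as a fixed block the 3′ probe gave 0.07 (adjusted p = 0.934). Across the 16 arrays of the ChREBPβ line, the deviations of both probes from their group means had a Pearson r of 0.79, given as a description. The ChREBPβ KO effect minus the total ChREBP KO effect was 6.11 ± 0.16 (SE) with the 3′ probe and 2.43 ± 0.14 with the upstream probe. Among WT mice, the ChREBPβ line was 0.57 ± 0.11 higher than the total ChREBP line with the 3′ probe and 0.31 ± 0.10 higher with the upstream probe, and the ranges overlapped. That gap ran from 0.15 to 1.01 between wash batches with the 3′ probe and from 0.04 to 0.77 with the upstream probe. Wash batches 1 and 3 each held 1 WT array of the ChREBPβ line.

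The alpha subunit that pairs with Atp4b in the stomach was near background in every group. Probe A_52_P300445 for Atp4a met the criterion of well above background on 0 of 32 arrays and had 0.938 to 1.60 times the signal of the negative controls, so no level is given. The other Atp4a probe, A_51_P426792, had 1.43 to 2.32 times the signal of the negative controls and met that criterion on 29 of 32 arrays. Its log2 intensity was 4.88 to 5.19 (median 5.01) in WT and 4.87 to 5.26 (median 5.15) in total ChREBP KO mice. It was 4.70 to 5.06 (median 4.85) in WT and 4.77 to 5.23 (median 5.10) in ChREBPβ KO mice. All 4 ranges overlapped. The difference was 0.09 ± 0.07 (SE) in total ChREBP KO and 0.17 ± 0.07 in ChREBPβ KO mice (limma, adjusted p = 0.204).

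Atp12a, which encodes the alpha subunit of the proton pump of colon and other epithelia, was also near background. Its probe had 1.3 to 2.03 times the signal of the negative controls and met the background criterion on 28 of 32 arrays. The log2 intensity was 4.67 to 4.99 (median 4.85) in WT and 4.73 to 5.07 (median 4.89) in total ChREBP KO mice. It was 4.56 to 4.95 (median 4.84) in WT and 4.70 to 5.04 (median 4.84) in ChREBPβ KO mice. The order of the 4 group means was within their SDs of 0.10 to 0.12. The difference was 0.06 ± 0.06 (SE) in total ChREBP KO and 0.05 ± 0.06 in ChREBPβ KO mice (limma, adjusted p = 0.795).

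**Figure D2:**
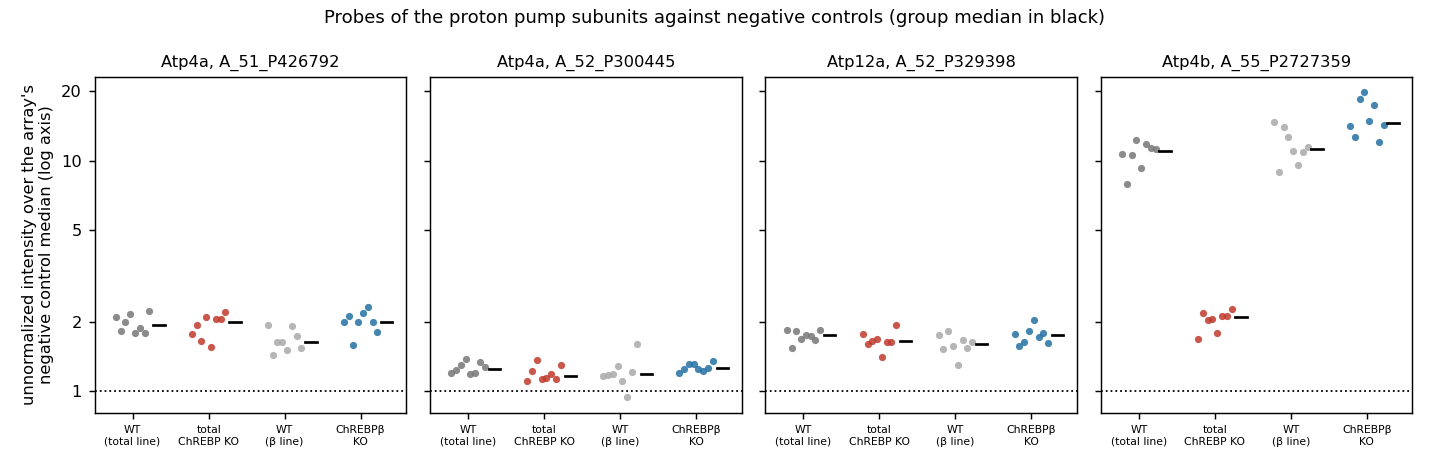
Unnormalized intensity of both Atp4a probes, the Atp12a probe and the upstream Atp4b probe divided by the median of the negative control spots on the same array (log axis), 1 point per array and the group median in black. The dotted line marks the negative controls. Atp4a and Atp12a stay between 0.938 and 2.32 in all groups, and the total ChREBP KO arrays of Atp4b fall into that range.

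The sodium pump beta subunits met the criterion of well above background on all 32 arrays with each of their 6 probes, although A_66_P117392 for Atp1b2 was near background. Atp1b1, the most widespread of the 3, had a log2 intensity of 9.83 to 11.22 (median 10.77) in WT and 10.68 to 11.35 (median 10.98) in total ChREBP KO mice. It was 9.45 to 10.13 (median 9.98) in WT and 9.73 to 10.17 (median 10.01) in ChREBPβ KO mice. The 8 total ChREBP KO arrays lay above both groups of the ChREBPβ line, and the WT arrays of the total ChREBP line spread over more than any other group. Atp1b1 was 0.37 ± 0.14 log2 units (SE) higher in total ChREBP KO mice, with all 8 KO arrays above the mean of WT, although the ranges overlapped. This difference was −0.09 in wash batch 3 and 0.78 in wash batch 4. In ChREBPβ KO mice it was 0.04 ± 0.14 (limma, adjusted p = 0.952), with an interval of −0.24 to 0.33.

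Atp1b2, first described as an adhesion molecule on glia, was measured by 2 probes that gave the same direction in total ChREBP KO mice. With A_55_P2492258, the log2 intensity was 9.40 to 10.78 (median 10.14) in WT and 9.21 to 10.17 (median 9.75) in total ChREBP KO mice, and 9.20 to 9.57 (median 9.43) in WT and 9.11 to 9.58 (median 9.36) in ChREBPβ KO mice. The groups of each line overlapped. The difference was −0.36 ± 0.14 (SE) in total ChREBP KO and −0.04 ± 0.14 in ChREBPβ KO mice (limma, adjusted p = 0.954). A_66_P117392 was near background, and its median array had 2.06 to 2.56 times the signal of the negative controls. With it the difference was −0.31 ± 0.09 in total ChREBP KO mice, and all 8 KO arrays were below the mean of WT. This difference ran from −0.62 to −0.15 over 14 other settings. That probe gave 0.02 ± 0.09 in ChREBPβ KO mice (limma, adjusted p = 0.97).

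Atp1b3 was measured by 3 probes, and all of them were higher in total ChREBP KO than in WT mice by a small amount. The difference was 0.16 ± 0.05 (SE) with A_51_P520384, 0.22 ± 0.06 with A_55_P2722799 and 0.29 ± 0.05 with A_52_P572950, and with each probe 8 of 8 KO arrays exceeded the mean of WT. In wash batch 4 alone, the first 2 probes gave −0.02 and −0.04. With A_52_P572950 the log2 intensity was 9.64 to 9.998 (median 9.70) in WT and 9.93 to 10.23 (median 10.0025) in total ChREBP KO mice. It was 9.72 to 10.04 (median 9.87) in WT and 9.85 to 10.11 (median 9.99) in ChREBPβ KO mice. One WT array, replicate 6, reached into the range of the KO arrays, and the other 7 stayed below it. In ChREBPβ KO mice the 3 probes gave 0.08 ± 0.05, 0.13 ± 0.06 and 0.09 ± 0.05 in the same order, with adjusted p = 0.516, 0.302 and 0.49 (limma).

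**Figure D3:**
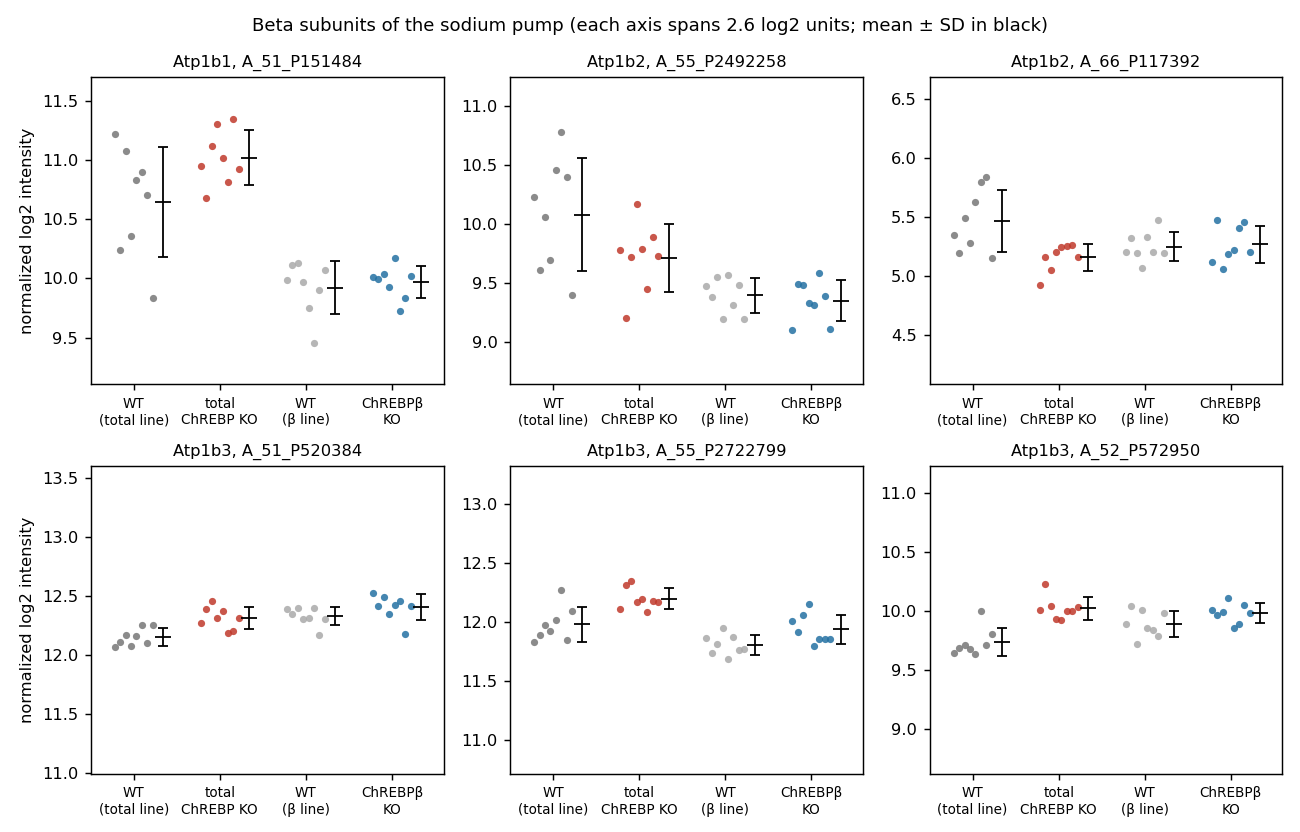
Normalized log2 intensity of the 6 probes for Atp1b1, Atp1b2 and Atp1b3, 1 point per array, 8 arrays per group, with mean ± SD in black and the same span of 2.6 log2 units on each axis. Atp1b1, and Atp1b2 with A_55_P2492258, have higher means in both groups of the total ChREBP line and their widest spread in its WT mice, while the groups of Atp1b3 differ by 0.29 log2 units or less in each line.

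Levels of Atp1b1 and Atp1b2 differed between the WT mice of both lines, as did the skeletal muscle genes. The WT mice of the ChREBPβ line differed from those of the total ChREBP line by −0.72 ± 0.14 log2 units (SE) in Atp1b1 and by −0.68 ± 0.14 in Atp1b2 with A_55_P2492258. With the muscle and liver gene means as covariates, these values were −0.53 ± 0.23 and −0.15 ± 0.22. The muscle gene means of these WT groups did not overlap (5.48 to 12.00 and 12.86 to 16.22), so muscle level and line cannot be told apart here. Atp1b3 showed no common direction, at 0.18 ± 0.05 and 0.16 ± 0.05 with A_51_P520384 and A_52_P572950 and −0.17 ± 0.06 with A_55_P2722799.

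The spread of Atp1b1 and Atp1b2 inside the total ChREBP line followed the muscle genes. Over its 16 arrays, with group means subtracted, the muscle gene mean and Atp1b2 had a Pearson r of 0.90 (permutation p = 1e-05, the smallest that 100000 resamples can give; adjusted p = 0.00012) and a Spearman rho of 0.94 (permutation p = 1e-05, adjusted p = 0.00012). For Atp1b1, r was 0.87 (permutation p = 0.00012, adjusted p = 0.00072) and rho 0.82 (permutation p = 0.00053, adjusted p = 0.00318). Without the 2 arrays farthest from the median muscle level, r was 0.92 for Atp1b2 and 0.80 for Atp1b1. In the ChREBPβ line, where the muscle genes were lower, Atp1b2 had r = 0.55 (permutation p = 0.03, adjusted p = 0.12) and rho = 0.51 (permutation p = 0.0441, adjusted p = 0.176), and r was 0.39 without the 2 farthest arrays. Atp1b1 had r = −0.25 (permutation p = 0.438, adjusted p = 0.773) and rho = −0.16 (permutation p = 0.575, adjusted p = 0.775) there. Atp4b had r = −0.14 (permutation p = 0.644, adjusted p = 0.773) and rho = −0.26 (permutation p = 0.335, adjusted p = 0.665) in the total ChREBP line. The p-values were adjusted over 12 relations, 6 genes in each line, and the 7 not named had adjusted p-values of 0.773 to 0.96 for r. With the mean of each wash batch and group subtracted, r over the 16 arrays was 0.96 for Atp1b2 and 0.89 for Atp1b1 in the total ChREBP line, and 0.87 for Atp1b2 and −0.04 for Atp1b1 in the ChREBPβ line. These values, computed after seeing the data, are a description, since 8 means are taken from 16 arrays and 1 and 3 arrays were alone in their batch and group. The part of muscle tissue in the levels of Atp1b1 and Atp1b2 was not tested.

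**Figure D4:**
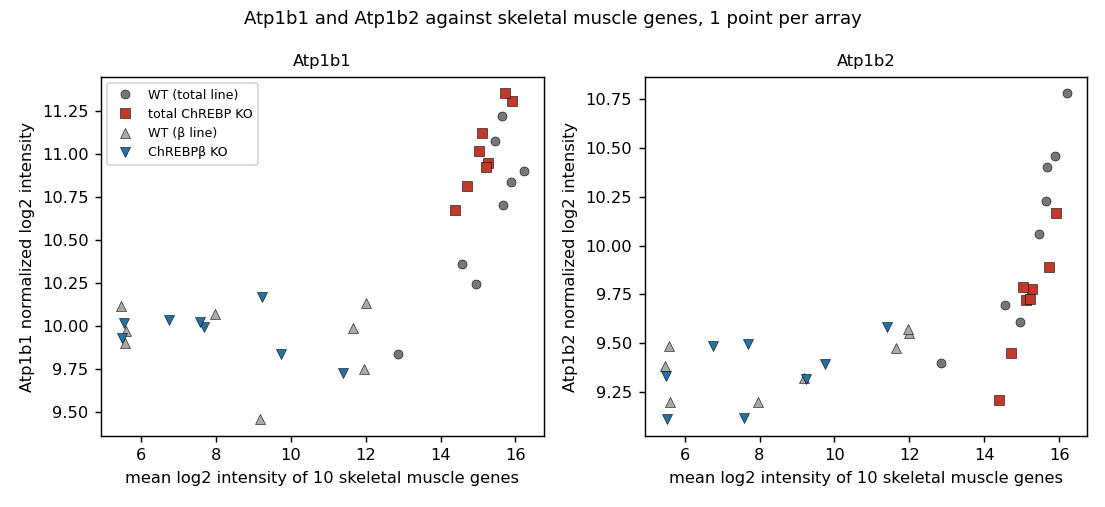
Normalized log2 intensity of Atp1b1 (left) and Atp1b2 (right, probe A_55_P2492258) against the mean log2 intensity of 10 skeletal muscle genes, 1 point per array. Arrays of the total ChREBP line lie between 12.86 and 16.22 on the muscle axis with higher values at higher muscle levels, and those of the ChREBPβ line lie at or below 12.00 with little slope.

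Over all 10 probes, 0 were called in ChREBPβ KO mice at an adjusted p under 0.05 (limma), where 2.55% of all probes tested were called. At an unadjusted p under 0.05, 3 were higher (A_51_P426792 for Atp4a, the upstream probe for Atp4b and A_55_P2722799 for Atp1b3), where 6.82% of all probes were. An exact permutation test over the 16 arrays gave 3 as well, with the 3′ probe of Atp4b (unadjusted p = 0.0491) in place of its upstream probe (unadjusted p = 0.0547). Of the 10 probes, 9 had a positive difference, as did 50.1% of all probes, with a median of 0.09 beside 0.0002 over all probes. The deviations of probes for the same gene are not independent.

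**Figure D5:**
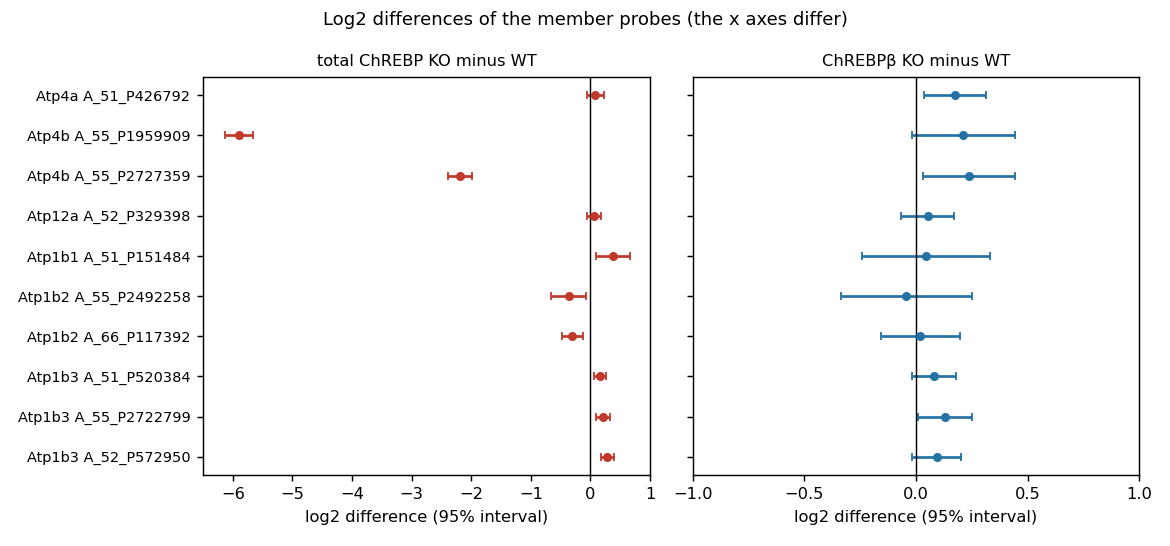
Log2 differences of the 10 probes between KO and WT mice with 95% intervals from limma, for total ChREBP KO (left) and ChREBPβ KO (right), on x axes of different span. The Atp4b probes lie at −5.90 and −2.19 in total ChREBP KO and at 0.21 and 0.24 in ChREBPβ KO, and the other 8 probes lie between −0.36 and 0.37 in both. The intervals on the left are a description and no test, since Atp4b was chosen by its level in total ChREBP KO mice.

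FXYD proteins are small membrane proteins that tune the sodium pump. Of 7 such genes, 6 had a probe past the filter, and in total ChREBP KO mice 1 rose and 2 fell, while 0 changed in ChREBPβ KO mice. Over all genes, 22.9% were called higher and 21.1% lower in total ChREBP KO, against 1.37% and 1.33% in ChREBPβ KO. Fxyd1 (phospholemman), the FXYD protein of heart and skeletal muscle, rose by 0.38 ± 0.10 (limma, adjusted p = 0.00167), and its second probe gave the same value. Fxyd2, the gamma subunit of kidney, fell by 0.61 ± 0.10 (adjusted p = 9.9e-06). Fxyd3 fell by 0.24 ± 0.10 (adjusted p = 0.0461), a call that held under 5 of 13 other settings and in 21 of 32 fits without 1 array, and its second probe gave −0.08. Fxyd3 was near background, with mean log2 intensities of 5.27 in WT and 5.03 in total ChREBP KO mice. With the muscle and liver means as covariates, Fxyd1 was 0.40 higher in total ChREBP KO and Fxyd2 differed by −0.60, and both calls remained. The muscle mean was 15.15 in WT and 15.17 in total ChREBP KO mice, so adjusting for it could move these differences little. The part of muscle tissue in them was not tested. The difference between the KO effects passed the test for Fxyd1 (−0.42 ± 0.14, adjusted p = 0.0248) and Fxyd2 (0.50 ± 0.14, adjusted p = 0.00945), where 25.2% of all genes passed. The call for Fxyd1 was lost with slide as a fixed block. Atp1b4, a beta-like protein of muscle that does not serve the pump, had a signal well above background in 7 of 8 WT and 8 of 8 KO mice of the total ChREBP line and in 0 mice of the ChREBPβ line, and differed by −0.44 ± 0.19 in total ChREBP KO (adjusted p = 0.056). Its SDs were 0.62 and 0.40 in WT and KO mice of the total ChREBP line and 0.18 and 0.19 in the ChREBPβ line. The SE pooled all 4 groups, so it owes part of its size to arrays at background. Fitted to the total ChREBP line alone, Atp1b4 was not called. It was called under 5 other settings of limma, with adjusted p-values of 0.0279 to 0.0473. It was also called when total ChREBP WT replicate 2, 4 or 8 or KO replicate 1, 3 or 4 was left out. The lowest adjusted p was 0.00231 (−0.60), without WT replicate 8.

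Of 17 genes that serve acid secretion beside Atp4a and Atp4b in parietal cells, 6 had a probe past the filter. The filter also asks that a spot be found and significant. Slc4a2 failed it although a spot of that name was well above background on 32 of 32 arrays, as did Slc26a7 with up to 24. Which condition they missed was not examined. Of the 6 genes tested, 1 changed in total ChREBP KO and 0 in ChREBPβ KO mice. Over all genes, 22.9% were called higher and 21.1% lower in total ChREBP KO, and 1.37% and 1.33% in ChREBPβ KO mice. Kcnj15, a potassium channel of the parietal cell and other epithelia, fell by 1.02 ± 0.23 in total ChREBP KO mice (limma, adjusted p = 0.000615), from 5.71 to 7.18 in WT to 5.18 to 5.49 in KO mice. The KO level was near background, and the difference ran from −1.55 to −0.63 over 13 other settings, in all of which it was called. In ChREBPβ KO mice the difference was −0.71 ± 0.23 (adjusted p = 0.107). Of the 7 parietal cell markers, only Gif and Kcnj15 passed the filter, and Kcne2, the channel subunit that supports acid secretion, was not well above background on any of the 32 arrays. Gif, which encodes intrinsic factor, differed by 0.04 ± 0.07 in total ChREBP KO mice (adjusted p = 0.653).

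The V-type proton pump, which acidifies lysosomes and other compartments by a different mechanism, was measured by 18 of 22 subunit genes. In total ChREBP KO mice 3 rose, 4 fell and 11 did not pass the test, with a median difference of −0.01 beside 0.01 over all genes. Over all genes, 22.9% were called higher and 21.1% lower. Atp6v1c2, an isoform of the C subunit known from kidney and lung, rose by 3.06 ± 0.13 (limma, adjusted p = 4.54e-19), from 4.44 to 5.08 in WT to 7.14 to 8.24 in KO mice, with a signal well above background in 5 of 8 WT mice. The WT level was near background, so the size depended on the setting and ran from 2.01 to 4.70, always past the test. Atp6v1b2 rose by 0.23 ± 0.05 and Atp6v1e1 by 0.21 (adjusted p = 0.000141 and 0.00632). Atp6v1g1, a stator subunit, fell by 0.67 ± 0.06 (adjusted p = 1.84e-11), and Atp6v0a2, Atp6v0a1 and Atp6v1g2 fell by 0.55, 0.25 and 0.25. The other probes of these 3 genes were not called. They gave −0.15 and −0.14 for Atp6v0a2, 0.12, 0.14 and 0.08 for Atp6v0a1 and 0.09 and −0.13 for Atp6v1g2. The calls of Atp6v0a1 and Atp6v1g2 were lost with slide as a fixed block and that of Atp6v1e1 with 75th percentile scaling of the median signal. In ChREBPβ KO mice, where 1.37% of all genes were called higher and 1.33% lower, Atp6v1g1 alone of the 18 was called. It fell by 0.26 ± 0.06 (limma, adjusted p = 0.00638). Its log2 intensity was 14.11 to 14.42 in WT and 13.83 to 14.13 in KO mice, ranges that just overlapped. This call was lost with slide as a fixed block. Its fall was larger in total ChREBP KO mice, with a difference between the effects of 0.40 ± 0.08 (adjusted p = 0.000269).

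The genes whose pattern was most like that of Atp4b were ranked by Pearson r over the 32 arrays, as a description. As measured, the 3′ probe had Slc2a5 (r = 0.99), Ank (r = 0.99), Sorcs2 (r = 0.99) and Farp1 (r = 0.99) among its 5 closest genes. These points share the total ChREBP KO arrays, in which Slc2a5, Ank, Sorcs2 and Farp1 differed from WT by −8.99, −1.95, −6.91 and −2.61 log2 units. With the group means subtracted, the closest genes were Bnip1 and Pm20d1 (r = 0.71 each), Chd1l and Rnmtl1 (r = 0.71 each) and Arhgef19 (r = 0.69), and 0 genes were in both lists. In the same measure, Atp1b2 was closest to Cdh15 (r = 0.91), Sypl2 (r = 0.91) and Myl3 (r = 0.89), genes of skeletal muscle, and Atp1b1 to Gdap1 (r = 0.87), Tecrl (r = 0.81) and Ak1 (r = 0.81). Atp1b3 was closest to Park2 (r = 0.74) and Bcl2l12 (r = 0.73). The closest values were 0.62 for Atp4a (Olfr170) and 0.61 for Atp12a (Tcl1b2), both measured near background.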

How the data were processed

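RNA of brown adipose tissue from 32 mice was hybridized to one-color Agilent 8x60K arrays. The authors scanned them, extracted spot intensities with Agilent Feature Extraction 10.10.1.1 and deposited those files together with a table of quantile-normalized log2 values. Here the deposited median intensity of each spot was filtered as their methods describe (a spot had to be found, positive and significant, and well above background, in at least 26 of 32 arrays or in 6 of a group), put on the log2 scale and quantile normalized, with the median taken over repeated probes. This gave 37306 probes, and at the 37304 deposited ones the values differed from the deposited log2 values by 0.00298 on average. The groups were taken from the labels. limma 3.58.1 (R 4.3.3) fitted 4 group means to all 32 arrays, and p-values were adjusted by Benjamini-Hochberg over all probes, with calls at 0.05. KO was tested against WT for the 6 genes in ChREBPβ KO alone. Their relation to muscle genes within groups was tested by permutation in both lines. All their probes are named. A partner gene was represented by its brightest probe, and the partner genes called are named. Some genes of the lists are not reported here. The 5 genes most like a gene were ranked by Pearson r, over genes with a RefSeq mRNA accession.

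The genes and lists were chosen with earlier results of these data known. Positions are those of the array design on mm9, and gene names were checked by accession against RefSeq (GRCm38.p6), except that of A_51_P426792. The number of arrays, 8 per group, limits the precision, and p-values measure the spread between these tissue samples. The alternatives covered signal and scaling, background correction, the dim-probe filter, the deposited table, wash batch, slide (15 slides), the replicate number, array weights, the samples fitted, variance moderation, marker gene covariates, an exact permutation test and leaving out each array. The fit was run on simulated data with independent normal values, the same SD in all groups and no slide or batch effect. That run checked the code and not how well the fit suits these arrays. Wash batch is the batch given in the labels.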

Additional observations from a re-analysis of the deposited data

Results flagged for a closer look

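Of 40 sets of 8 arrays (10 probes in 4 groups), 4 held 1 array farther from the others than Dixon's 95% criterion allows, and chance flags about 1 in 20 sets. For Atp12a, WT replicate 5 of the ChREBPβ line was at 4.56, below the next array at 4.77. For Atp1b3 with A_51_P520384, WT replicate 7 of the ChREBPβ line was at 12.17, below the next at 12.30. With A_52_P572950, WT replicate 6 of the total ChREBP line was at 9.998, above the next at 9.80, and total ChREBP KO replicate 2 was at 10.23, above the next at 10.04.

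The partner genes tested were 1 other beta subunit, 6 FXYD, 6 acid secretion and 18 V-type pump genes. Over all genes, 25.2% passed the limma test for the difference between the KO effects. The ChREBPβ KO effect minus the total ChREBP KO effect passed it for 8 partner genes, near that share. On the log2 scale it was −2.73 for Atp6v1c2 (adjusted p = 2.7e-13), −0.42 for Fxyd1, −0.27 for Atp6v1b2 and −0.27 for Atp6v1e1, so the level in KO relative to WT was higher with total ChREBP KO. It was 0.50 for Fxyd2, 0.40 for Atp6v1g1, 0.36 for Atp6v0a2 (adjusted p = 0.0431) and 0.36 for Atp6v1g2. The call for Atp6v0a2 was lost under 4 of 13 other settings and held in 14 of 32 fits without 1 array. Those for Fxyd1 and Atp6v1g2 were lost with slide as a fixed block and that for Atp6v1e1 with 75th percentile scaling of the median signal. The value for Atp6v1c2 ran from −4.10 to −1.84.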

How the results depend on the processing

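The number of probes of the 6 genes called in ChREBPβ KO mice was 0 under all 14 other settings of limma and without any 1 array, and 3 by the exact permutation test at an unadjusted p under 0.05. That exact permutation test gave p = 0.0491 for the 3′ and p = 0.0547 for the upstream Atp4b probe (differences 0.21 and 0.24), on the other side of 0.05 from limma's unadjusted p = 0.0705 and 0.0249. In single wash batches the Atp4b difference in ChREBPβ KO reached 0.50 (batch 3, 3′ probe) and 0.54 (batch 4, upstream probe). It was 0.03 in batch 2 and just below 0 in batch 1 with the 3′ probe, and 0.06 at the lowest with the upstream probe. Batches 1 and 3 each held 1 ChREBPβ WT array and batch 4 held 1 ChREBPβ KO array, so these values rest on few arrays. With slide as a fixed block the 3′ probe gave 0.07. In total ChREBP KO the difference of the 3′ and upstream probes was −4.87 and −1.48 with normexp and −7.25 and −3.08 with the processed signal. It was −5.27 and −1.97 in wash batch 2, with 1 total ChREBP KO array, and −6.19 in batch 3 with the 3′ probe. Leaving out 1 array gave −5.97 to −5.85 and −2.25 to −2.15 there, and 0.16 to 0.25 and 0.19 to 0.28 in ChREBPβ KO.

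Partner genes called in ChREBPβ KO, where 1.37% of all genes were called higher and 1.33% lower, numbered 1. They numbered 2 with array weights or without ChREBPβ WT replicate 5 or 7 (Kcnj15 added) and 0 with slide as a fixed block. Partner genes called in total ChREBP KO, where 22.9% of all genes were called higher and 21.1% lower, numbered 11, and 8 to 13 over 14 other settings. For the difference they numbered 8, where 25.2% of all genes passed, and 5 to 9 over 13 other settings. The 5 came with slide as a fixed block, without Fxyd1, Atp6v0a2 and Atp6v1g2. With 1 array left out the counts were 10 to 12 and 7 to 9, a check chosen after seeing the data.

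Some differences changed sign, and not all of these are listed. In single wash batches of ChREBPβ KO against WT, Atp12a ran from −0.10 to 0.15 and Atp1b1 from −0.15 to 0.11. Atp1b2 ran there from −0.21 to 0.22 with A_55_P2492258 and from −0.18 to 0.17 with A_66_P117392. In ChREBPβ KO, Atp12a gave −0.037 with 75th percentile scaling of the median signal and −0.039 with slide fixed, Atp1b1 −0.20 with slide fixed, −0.0087 with wash batch as a block and −0.022 to 0.079 with 1 array left out (lowest without WT replicate 6), and Atp1b2 (A_55_P2492258) 0.013 with the marker covariates. Atp1b2 (A_66_P117392) gave −0.037 and −0.021 with 75th percentile scaling of the median and processed signal, −0.026 with slide fixed, −0.001 with wash batch and −0.010 to 0.051 with 1 array left out. In total ChREBP KO, Atp1b1 was −0.090 in wash batch 3, and Atp1b3 was −0.018 (A_51_P520384) and −0.037 (A_55_P2722799) in batch 4. Between WT groups, Atp1b3 was −0.012 (A_52_P572950) in batch 4. The causes were not tested.

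The labels number the mice 1 to 8 in every group. Correlations of same-numbered deviations ran from −0.30 to 0.08 in the total ChREBP line and from −0.20 to 0.53 in the ChREBPβ line, with 0 and 6 of 8 pairs over 0.1, and 0 and 1 of 8 KO arrays correlated best with their own number, so the numbers were not taken as pairs. With the replicate number as a block, 0 probes of the 6 genes were called in ChREBPβ KO, and the Atp4b probes had adjusted p = 0.334 and 0.26. Probes of Atp4a and Atp12a, at 0.938 to 2.32 times the negative controls, and of Atp4b in total ChREBP KO lay where signal over background limits any fold. So did the Atp1b2 probe A_66_P117392.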
